A study of Mus musculus with 2 samples.

Results

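Mural cells are the cells wrapped around small vessels, that is pericytes on capillaries and smooth muscle cells on arterioles and venules. In dissociated embryonic mouse cochleae they were selected on measured counts as barcodes with at least 2 unique molecular identifiers (UMIs, counted RNA molecules) of Rgs5 and at least 1 of Kcnj8, Abcc9, Higd1b or Notch3 detected. A barcode holding any Epcam, or 2 or more UMIs of Cldn5, Cdh5 and Pecam1 together, was left out. The rule kept 99 of 6440 wild-type barcodes and 108 of 9373 mutant barcodes, 207 of 15813 in all. The shares were 1.54% (exact Clopper-Pearson 95% interval 1.25 to 1.87) and 1.15% (0.946 to 1.39). With a common floor of 3352 UMIs, the lowest passing wild-type depth, they were 1.54% and 1.36%.

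Both libraries came from cochleae at embryonic stage E16.5 on a mixed background, given as Mixed (129/SvEv, C57BL/6N), with 8 cochleae pooled per genotype. The first library is wild type. The other is Emx2Cre;Ptch1f/f, in which Cre is expressed from Emx2 and recombines floxed Ptch1, which encodes the Hedgehog receptor that represses the pathway in the absence of ligand. Cells are recombined only where Emx2 was active in them or their precursors. Among the mural barcodes 1 wild-type UMI of Emx2 was counted and 0 mutant ones, which allows up to 2.20 CPM (UMIs of a gene scaled to a library's sum of 1000000). The libraries are whole dissociates, and neither the floxed part of Ptch1 nor its recombination in a given barcode was read here. Each genotype has 1 library and so no replicate check. No test was therefore made, and the intervals reflect counting error alone.

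Pericytes share a basement membrane with the endothelium and are recruited by endothelial PDGF-B acting on their receptor PDGFRB. Notch signals from the endothelium act on mural cells through NOTCH3, and the potassium channel formed by KCNJ8 and the sulfonylurea receptor ABCC9 sets their membrane potential. Arteriolar smooth muscle adds a contractile apparatus built on smooth muscle actin and myosin. In the cochlea, pericytes are densest along the capillaries of the lateral wall, where the stria vascularis makes the endocochlear potential.

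The mural barcodes held 910919 (wild type) and 1362676 (mutant) UMIs. Depth per barcode ran from 3534 through a median of 7933 to 25149 UMIs for the wild type, and from 1028 through 11454 to 38190 in the mutant, so the mutant barcodes were deeper at the median. No mural barcode sequence occurred in the other library, while 18 of all passing barcodes did. Endothelial barcodes (3 or more UMIs of Cldn5, Cdh5 and Pecam1 together, no Epcam and fewer than 2 of Rgs5) numbered 87 and 120. Mesenchymal barcodes (2 or more UMIs of Col1a2, at least 1 of Pdgfra, fewer than 2 of the endothelial genes, and no Epcam or Rgs5) numbered 1541 and 2454. Both served as neighbours for comparison.

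The genes of the selection give the members' profile, as a description only. Rgs5, a regulator that shortens G protein signalling (chromosome 1, 169655501 to 169695813 in GRCm38), summed to 3277 CPM over wild-type and 2680 CPM over mutant members, against 14.7 and 14.6 CPM in all other barcodes. Its UMIs per barcode had medians of 27 and 27.5. Kcnj8 and Abcc9 lie side by side on chromosome 6, at 142564837 to 142571614 and 142587862 to 142702315. Kcnj8 stood at 352 and 289 CPM and Abcc9 at 438 and 431 CPM. Notch3 stood at 143 and 138 CPM. Higd1b, which encodes a small mitochondrial membrane protein, had 164 CPM in 44 wild-type barcodes and 53.6 CPM in 28 mutant barcodes. All 4 partner genes were detected in 29 wild-type and 24 mutant barcodes, and exactly 1 in 14 and 11.

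Markers that took no part in the selection gave a mural profile. Of 11 such markers (Pdgfrb, Cspg4, Mcam, Des, Vtn, Cox4i2, Ndufa4l2, Rgs4, Heyl, Ednra and Gucy1a1), 5 or more were detected in 83 of 99 wild-type and 101 of 108 mutant mural barcodes. The same held for 0 of 87 and 2 of 120 endothelial barcodes and for 7 of 1541 and 14 of 2454 mesenchymal barcodes. Both of these sets were limited in Rgs5 by their own definition, so barcodes of mural kind were kept out of them. Pdgfrb, the PDGF-B receptor, had a UMI in 87 and 101 mural barcodes and stood at 463 and 509 CPM, against 41.2 and 52.9 CPM in other barcodes. Cspg4, the NG2 proteoglycan of pericyte surfaces, stood at 165 and 199 CPM. Ndufa4l2, a paralogue of a respiratory chain subunit, stood at 605 and 612 CPM, against 5.45 and 3.08 CPM elsewhere. Of the 19 markers on the wider mural list with at least 10 UMIs, 16 were at least 2-fold above all other barcodes in both libraries. So were 6.03% of 6232 genes, counted at the higher minimum of 50 UMIs. The shares of barcodes with a UMI rise with depth, and mural barcodes were deeper than the passing medians of 7339 and 8319 UMIs.

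**Figure D1:**
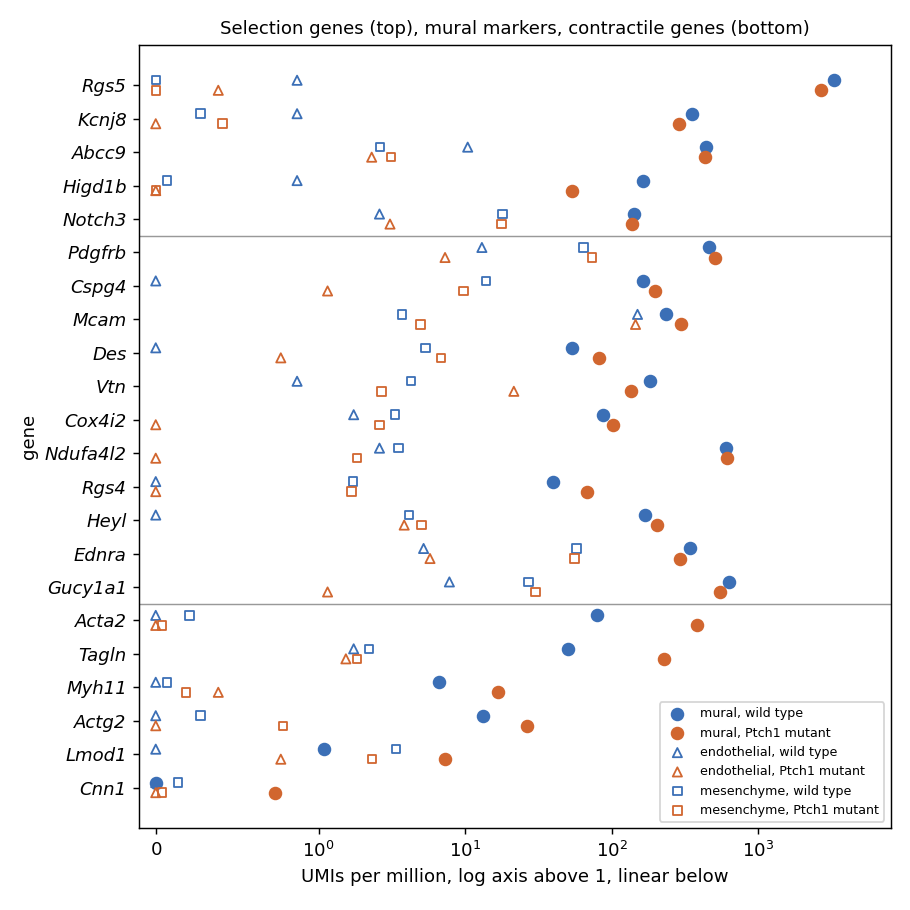
Level of the 5 selection genes, 11 further mural markers and 6 smooth muscle genes, in CPM summed over the barcodes of each library. Filled circles are mural barcodes, triangles endothelial and squares mesenchymal ones, with wild type in blue and mutant in orange. The 11 further markers have their rightmost points in the mural barcodes, with Mcam also high in endothelium, and mesenchymal barcodes have Rgs5 at 0 by construction.

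Among the genes standing highest above all other barcodes, ranked by the smaller of both libraries' ratios, Ndufa4l2 came first at 94.0-fold and 150.1-fold. Foxs1, a forkhead factor of mural cells, stood at 50.5 and 83.7 CPM against 0.588 and 0.223 CPM elsewhere. Gucy1a1 and Gucy1b1, the subunits of the nitric oxide receptor guanylate cyclase, had 632 and 551 CPM, and 213 and 253 CPM, respectively. Mgp, a secreted inhibitor of calcification and of BMP signalling, reached 5333 and 4582 CPM. Rasgrp2, an exchange factor for RAP GTPases, stood at 221 and 248 CPM. Heyl, a Notch target, stood at 169 and 204 CPM, and Itga1, a collagen-binding integrin, at 876 and 831 CPM.

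Some of the first 25 genes in that order were shared with endothelium. Igfbp7, a secreted growth factor binding protein, stood at 992 and 903 CPM in mural and at 1527 and 1470.5 CPM in endothelial barcodes. Epas1, the HIF-2 alpha factor, stood at 135 and 175 CPM against 234 and 237 CPM in endothelium. Gng11, a G protein gamma subunit, stood at 840 and 730 CPM against 820 and 733 CPM there. By contrast Rasl12 was at 76.8 and 114 CPM in mural and had no UMI in endothelial barcodes. Dlk1, a non-canonical Notch ligand, stood at 314 and 511 CPM and was detected in 48 and 68 mural barcodes, so that a large share of them held none.

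Close to the selection limits the profile thinned out. Members with 2 to 5 Rgs5 UMIs numbered 11 and 14, and 5 of 11 and 9 of 14 of them held 5 or more of the 11 markers. Just outside lay 13 and 17 barcodes with 1 Rgs5 UMI and a partner gene, of which 1 and 2 held 5 or more. A further 15 and 12 had enough Rgs5 but no partner gene. Epcam removed 19 wild-type and 40 mutant barcodes that met the other conditions, and those 40 had a median of 52658 UMIs. The median Rgs5 count in the removed barcodes was 5 and 11.5 UMIs. Among epithelial barcodes with 3 or more Epcam UMIs, 7.36% and 8.67% held at least 1 Rgs5 UMI. Whether these were background counts, mixed barcodes or expression was not tested.

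Contractile genes were unevenly spread over the mural barcodes. Of Acta2, Tagln, Myh11, Cnn1, Lmod1 and Actg2, at least 1 was detected in 22 of 99 wild-type and 35 of 108 mutant members, and none in 77 and 73, which at this depth does not show that the transcripts are absent. Cald1, by contrast, had a UMI in 97 and 106 barcodes, Myl9 in 68 and 87 and Mylk in 65 and 76. Acta2, smooth muscle actin (chromosome 19, 34241090 to 34255590), had a UMI in 14 and 22 barcodes, so its lowest and median values were 0 in both libraries. Its highest values were 33.1 and 125.3 UMIs per 10000. The 5 barcodes with most held 79.2% of its wild-type and 74.95% of its mutant UMIs. Outside the mural barcodes 0.678% and 0.313% of barcodes held an Acta2 UMI, and no endothelial barcode did. Tagln, the actin-bundling transgelin (chromosome 9, 45929619 to 45936058), was spread alike, over 15 and 23 barcodes with 73.9% and 74.8% of UMIs in the top 5.

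**Figure D2:**
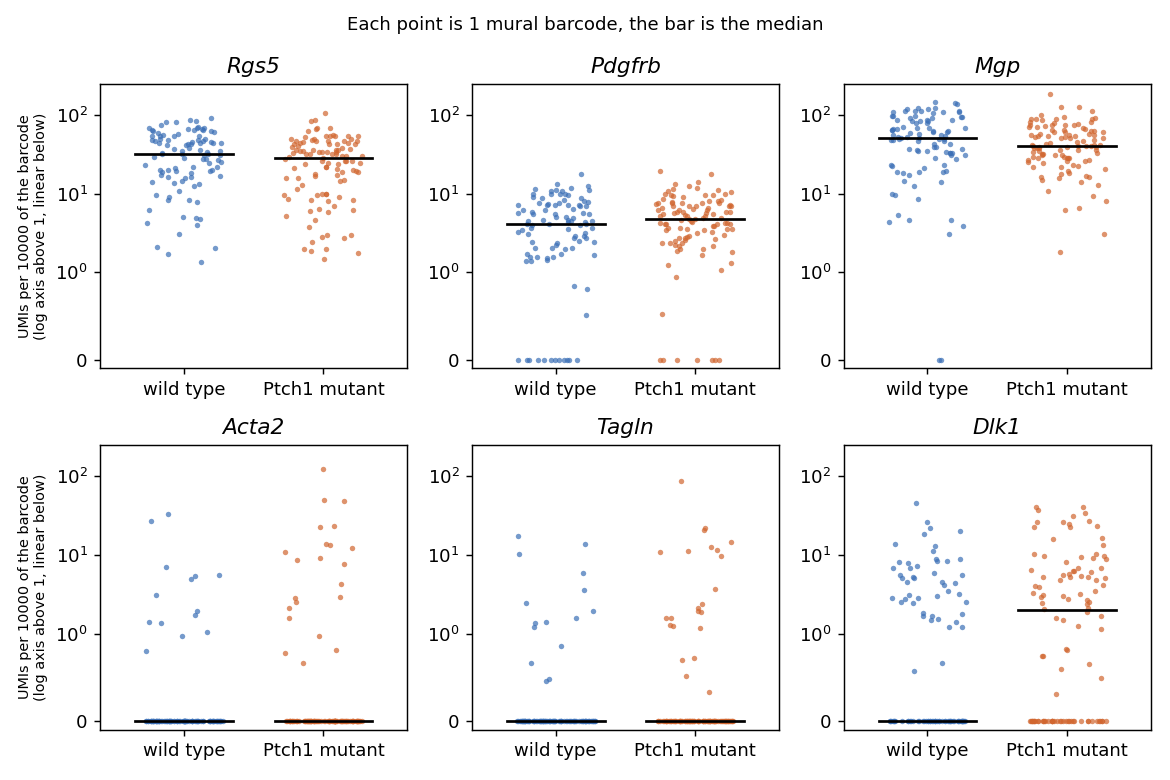
UMIs per 10000 UMIs of the barcode for 6 genes in each of the 99 wild-type and 108 mutant mural barcodes. Each point is 1 barcode and the black bar is the median. Rgs5, used for selection, Pdgfrb and Mgp fill nearly all barcodes in overlapping ranges, whereas Acta2 and Tagln have medians of 0 with a few high barcodes, more of them in the mutant.

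In sum over the mural barcodes the contractile genes were higher in the mutant library. The 14 measured genes of the list summed to 2771 and 3713 CPM, a log2 ratio of 0.42 (0.35 to 0.49). The median gene was at 0.61, against 0.088 over 10674 genes with at least 10 UMIs. At least 2-fold higher were 5 of 14, where 5.07% of all such genes were, and none was 2-fold lower, where 2.87% were. Acta2 stood at 79.0 CPM (61.8 to 99.5) and 381 CPM (349 to 415), and Tagln at 50.5 (37.0 to 67.4) and 227 (202 to 254). Myh11, smooth muscle myosin, had 6 and 23 UMIs, Lmod1, an actin nucleator, 1 and 10, and Mustn1 4 and 19. Of Cald1, Mylk and Myl9, found in most mural barcodes, Cald1 and Mylk differed less. Cald1, the actin-binding caldesmon, stood at 1490 and 1653 CPM and Mylk, myosin light chain kinase, at 181 and 159 CPM. Their ranges over barcodes overlapped, as did those of Acta2. Myl9 had 277 and 624 UMIs, and its log2 ratio was 0.54 without the top barcode of each library.

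For Acta2 and Tagln the difference rested on few barcodes. The highest mutant barcode gave 138 of 519 Acta2 UMIs and 97 of 309 Tagln UMIs, and the highest wild-type barcode 32 of 72 and 10 of 46. With the top barcode of each library left out, Acta2 kept a log2 ratio of 2.64 and Tagln of 1.95, while Myh11 was at 0.75. With at least 2 partner genes required, the summed ratio of the list was 0.19. At least 3 of the 6 genes were detected in 3 wild-type and 10 mutant barcodes. After each barcode was thinned to 2000 UMIs, these were 2 of 99 (2.02%, 0.246 to 7.11) and 3 of 105 (2.86%, 0.593 to 8.12), with 3 mutant barcodes too shallow to enter. Over 100 draws they had medians of 2 and 4 and ranged from 0 to 3 and from 1 to 6. A difference in the share of contractile barcodes was thus not detectable at this depth. At the same depth 0 of 6341 and 0 of 7976 other barcodes qualified, which allows up to 0.0473% and 0.0376%.

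The 13 contractile barcodes of both libraries, those with at least 3 of the 6 genes before thinning, are a range of a count, not a type, with 18 barcodes (8 and 10) just below at 2 genes. None of the 13 had more than 10 UMIs per 10000 from markers of any of 6 other lineages. Mesenchyme and endothelium were not among those 6. Pdgfrb, which took no part in the selection, stood at 370 CPM (285 to 471) in them and at 501 CPM (471 to 532) in the other 194 members. Vtn, Rgs4 and Gucy1a1, of the same 11 markers, were also lower in them. The rest of the 11, Cspg4, Mcam, Des, Cox4i2, Ndufa4l2, Heyl and Ednra, were higher. Cspg4 stood at 279 CPM (206 to 369) against 177 CPM (160 to 196). Some other genes outside the count were also higher in the 13 barcodes. Cd93 stood at 79.7 against 1.91 CPM, Ngfr at 68.3 against 2.86 CPM and Fmod at 56.9 against 1.91 CPM. These 3 had 14, 12 and 10 UMIs in the 13 barcodes. Myl9, the regulatory myosin light chain, was at 1417 CPM (1247 to 1604) against 311 CPM (287 to 336), and Tpm1, tropomyosin, at 1480 against 299.8 CPM. Gja4, a connexin of arterial vessels, stood at 216 against 45.8 CPM. Myocd, the coactivator that drives smooth muscle genes, had 7 UMIs in the 13 barcodes and 4 in the 194. Itga8 had 1 UMI against 169. Of the selection genes, given as a description, Notch3 stood at 324 CPM (246 to 420) against 124 CPM (110 to 140) and Kcnj8 at 193 CPM (134 to 270) against 325 CPM (301 to 350).

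Of 24 measured transcription regulators of the mural lineage, Myocd alone was 2-fold higher in the mutant, at 1 and 10 UMIs, and none was 2-fold lower. Over all genes with at least 10 UMIs 5.07% were higher and 2.87% lower, close to the shares on this list. The list's median was 0.27, and its summed ratio was 0.19 (0.13 to 0.25). Ebf1, a factor abundant in pericytes and in mesenchyme, stood at 1430 and 1556 CPM. Tbx18, a T-box factor that marks mural cells, stood at 201 and 244 CPM, no higher than in other barcodes at 230 and 272 CPM. Mef2c stood at 194 and 335 CPM with the highest ratio among list members of at least 30 UMIs, 0.78 (0.53 to 1.04). Klf4 had the lowest, at 74.6 and 62.4 CPM.

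Notch and PDGF genes lay within 2-fold between the libraries, as did most genes. Over all genes with at least 10 UMIs 5.07% were 2-fold higher and 2.87% lower, so lists this short would hold few calls. Of 9 measured Notch genes outside the selection none passed 2-fold. Their summed ratio was 0.088 (-0.026 to 0.202), beside a median of 0.088 over all genes. Hes1, a target, stood at 554 and 517 CPM and Hey1, another, at 60.4 and 104 CPM, with a ratio of 0.78. The ligand gene Jag1 stood at 58.2 and 63.8 CPM, while Dll4 had 1 and 2 UMIs. Notch2 had the lowest ratio, with 22 and 20 UMIs. Of 4 PDGF genes none passed 2-fold, and the receptor gene Pdgfrb had a log2 ratio of 0.14 (-0.04 to 0.31). Pdgfra, the receptor of mesenchymal cells, stood at 15.4 and 16.1 CPM in mural barcodes and at 88.7 and 105 CPM in the others.

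Genes of vessel growth and tone mostly lay within 2-fold of each other in the libraries. Most genes did, as 5.07% of all genes with at least 10 UMIs were 2-fold higher and 2.87% lower. Of 14 angiogenic ligands and receptors none passed 2-fold. S1pr3, a sphingosine-1-phosphate receptor, stood at 188 and 155 CPM, Efnb2 at 52.7 and 66.8 CPM, and Cxcl12, a chemokine, at 61.5 and 32.3 CPM. The endothelial receptor genes Kdr, Tek and Tie1 had at most 6 UMIs each in a library. Among 21 vasoactive genes, P2ry14 was 2-fold higher with 6 and 22 UMIs and Pde4d 2-fold lower with 34 and 19 UMIs, near those shares. Ednra, the endothelin receptor, stood at 344 and 293 CPM, and Rgs4, like Rgs5 a brake on G proteins, at 39.5 and 67.5 CPM. Of 19 channel, pump and transporter genes none passed 2-fold. Gja4 had the highest ratio among them with 35 and 99 UMIs.

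The 32 measured matrix genes summed to 14011 and 13260 CPM in mural barcodes. All 34 listed genes summed to 4991 and 4228 CPM in all others. Between the libraries the mural sums gave a ratio of -0.08 (-0.112 to -0.047), while the median gene stood at 0.14. The sum thus had the opposite sign to the median, which lay near the median of 0.088 over all genes with at least 10 UMIs. Mgp, with a ratio of -0.22, had the highest level on the list. Col4a1 and Col4a2, the main chains of collagen IV in basement membranes, had 2261 and 2152 CPM, and 1161 and 1047 CPM, respectively. Nid1, which links laminin to collagen IV, stood at 468 and 382 CPM and Bgn, biglycan, at 521 and 709 CPM. Of the 32, 2 passed 2-fold, both upwards, near the 5.07% of all genes. They were Lama5 with 2 and 9 UMIs and Col6a1 with 4 and 36. Col6a1 also had the highest ratio among members of at least 30 UMIs, and Lama2 the lowest at 40.6 and 26.4 CPM. Of 11 integrins, Itga7, a laminin receptor of muscle, was 2-fold higher with 5 and 27 UMIs and Itga9 with 3 and 15, that is 2 of 11 where 5.07% of all genes were. Itgb1, the common beta chain, stood at 650 and 576 CPM.

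Hedgehog genes in mural barcodes ranged from no UMI for Hhip to a highest level for Gas1. Ptch1, the targeted gene and itself a pathway target, had 13 and 21 UMIs, or 14.3 CPM (7.60 to 24.4) and 15.4 CPM (9.54 to 23.6). In all other barcodes Ptch1 stood at 27.6 and 63.2 CPM, and a 3′ count does not show whether the transcript is recombined. Gli1, a target that reads out pathway activity, had 2 and 7 UMIs, or 2.20 and 5.14 CPM. Hhip, a decoy receptor, had none, which allows up to 3.29 and 2.20 CPM. The transducer Smo stood at 81.2 and 82.9 CPM and the coreceptor Gas1 at 177 and 192 CPM. Sufu had 8 and 25 UMIs. Of the 6 measured genes Cdon, a coreceptor, was 2-fold lower with 9 and 3 UMIs, where 2.87% of all genes were. The summed ratio was 0.11 (-0.11 to 0.33). Counted with equal weight per barcode it was -0.01.

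WNT pathway genes were lower in the mutant library, by 0.39 on the log2 scale in sum (-0.58 to -0.21). Of 14 measured, 12 had a ratio below 0 and 2 above, where 59.2% of all 10674 genes were above 0. Past 2-fold were Fzd7, a receptor, with 23 and 15 UMIs and Nkd1, a feedback inhibitor, with 27 and 19 UMIs, 2 of 14 where 2.87% of all genes were 2-fold lower. Axin2, another feedback inhibitor and common readout, stood at 64.8 and 32.3 CPM. Fzd2 and Lrp6 had 64.8 and 66.8 CPM, and 54.9 and 68.2 CPM, respectively. The sum stayed between -0.67 and -0.33 under every alternative run on it. Each of these genes rests on fewer than 100 UMIs per library. The 14 measured genes summed to 506 and 385 CPM in mural barcodes, and all 17 listed genes to 1066 and 1051 CPM in the others. Mesenchyme markers moved the same way in the mural barcodes, with 10 of 12 below 0 and a summed ratio of -0.30 (-0.40 to -0.20), and their part in the WNT values was not tested.

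Of the growth factor lists, 19 TGF beta and BMP genes held no member past 2-fold. Over all genes with at least 10 UMIs 5.07% were higher and 2.87% lower. Id3, a BMP target, stood at 1166 and 1134 CPM, Tgfb2 at 59.3 and 99.8 CPM and Tgfbr2 at 34.0 and 19.8 CPM. Of 9 insulin-like growth factor genes Igf1 was 2-fold lower, at 49.4 and 21.3 CPM, beside that 2.87% of all genes. In other barcodes Igf1 stood at 131 and 58.2 CPM. Igfbp7 had the highest level of that list, and Igf1r the highest ratio at 74.6 and 112 CPM.

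**Figure D3:**
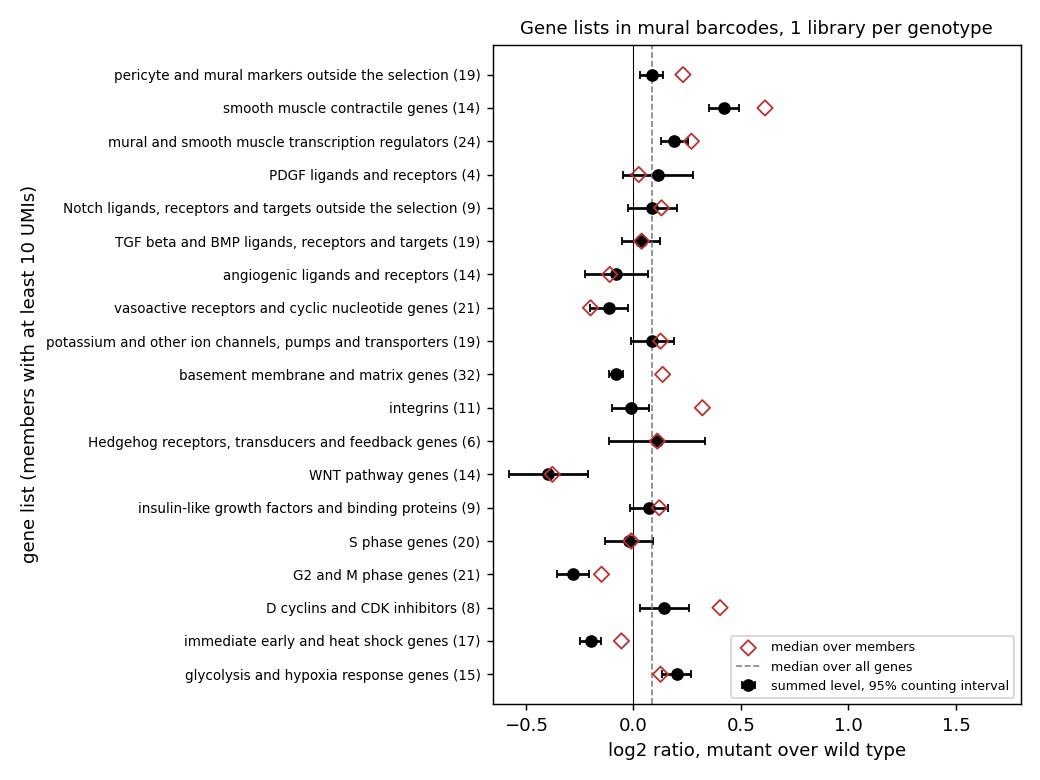
Log2 ratio, mutant over wild type, of 19 gene lists in the mural barcodes. Black circles are the ratio of summed levels with its 95% counting interval, red diamonds the median of the members that reached 10 UMIs, whose number stands in brackets, and the dashed line the median over all genes (0.088). The contractile list lies farthest to the right (0.42) and the WNT list farthest to the left (-0.39).

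Many mural barcodes carried transcripts of dividing cells. Thinned to 2000 UMIs, 33 of 99 wild-type (33.3%, 24.2 to 43.5) and 26 of 105 mutant barcodes (24.8%, 16.9 to 34.1) held at least 3 of 21 G2 and M phase genes. The intervals overlapped. Over 100 draws the counts had medians of 32 and 29 and ran from 29 to 35 and from 26 to 32, so the mutant count of 26 was the lowest drawn, and without thinning the shares were 41.4% and 38.9%. At 2000 UMIs, 28.7% and 40.3% of endothelial barcodes and 21.2% and 19.5% of mesenchymal barcodes held as many. Without mixed barcodes, those with over 5 UMIs per 10000 from 6 other lineages, the mural shares were 31.9% and 35.3%, so their order depended on that setting. The 21 genes summed to 2838 and 2340 CPM, a ratio of -0.28 (-0.35 to -0.20), and none passed 2-fold. That ratio was -0.082 without mixed barcodes and -0.42 with each barcode weighted equally. Top2a, topoisomerase II, stood at 434 and 379 CPM, Ccnb2 at 80.1 and 88.1 CPM, and Prc1, of the spindle midzone, at 248 and 148 CPM. Of 20 S phase genes E2f8 was 2-fold lower with 20 and 11 UMIs. Over all genes with at least 10 UMIs 5.07% were 2-fold higher and 2.87% lower. Among the S phase genes Slbp, the histone mRNA binding protein, had the highest level at 179 and 154 CPM. Mcm2, of the replicative helicase, had the highest ratio there at 25.2 and 36.7 CPM. Among D cyclins and CDK inhibitors Ccnd2 stood at 495 and 387 CPM and Cdkn1c, which encodes the inhibitor p57, at 313 and 499 CPM.

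Immediate early genes, which dissociation can induce, were present in both libraries. Of 17 with heat shock genes none passed 2-fold, where 5.07% of all genes were higher and 2.87% lower. Their summed ratio was -0.20 (-0.25 to -0.15). Fos stood at 1085 and 815 CPM, Egr1 at 1037 and 669 CPM and Btg2 at 250 and 326 CPM. In other barcodes Fos stood at 773 and 499 CPM and Egr1 at 568 and 406 CPM. Of 15 glycolysis and hypoxia response genes, Eno1 was 2-fold higher with 41 and 212 UMIs and Pdk1 2-fold lower with 20 and 14. The same shares of all genes stand beside these. Eno1 has a near-identical copy in the genome, so its count is uncertain, and it stood at 93.4 and 163 CPM in other barcodes. Gapdh stood at 774 and 955 CPM.

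Over all genes, few passed 2-fold between the libraries. Of 6232 genes with at least 50 UMIs over both sums, 107 (1.72%) were 2-fold or more above the wild type and 53 (0.85%) 2-fold or more below it. With median-of-ratios scaling the counts were 81 and 69. The median log2 ratio was 0.084 in mural barcodes and 0.014 in all others. Of the 107, 10 had over 50% of their UMIs in 1 barcode and 9 were also 2-fold higher in the other barcodes, which leaves 88 with neither. Of the 53, the numbers were 12, 12 and 29.

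The genes with the highest ratios fell into these kinds. Dqx1 (0 and 110 UMIs), Pvalb (1 and 79), Sncg (4 and 93), Nefm (4 and 86) and Rtn1 (7 and 77) each lay mostly in 1 mutant barcode. The top barcode gave 107 of the 110 UMIs of Dqx1 and 76 of the 86 of Nefm, a neurofilament gene. Without the top barcode Nefm had 3 and 10 UMIs. Mpnd, Hist1h2ap, Gm10076 and Gstp1 were 2-fold higher in other barcodes too, with ratios of 2.44, 2.23, 2.19 and 2.04 in mural and 2.83, 2.79, 2.06 and 1.73 in other barcodes. The remaining 3 of the 12 were Acta2, Tagln and Anxa1. Anxa1, a phospholipid-binding annexin, stood at 15.4 CPM in 6 wild-type and 71.9 CPM in 22 mutant barcodes, and its top 5 mutant barcodes held 67.3% of its UMIs.

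Among the 12 lowest ratios, 5 genes lay mostly in 1 barcode, 5 were 2-fold lower in other barcodes too and 2 were neither. Cxcl2 (86 and 0 UMIs), Pf4 (60 and 2), Gm10457 (84 and 4), 2810403D21Rik (52 and 14) and Tmem80 (60 and 27) had most of their wild-type UMIs in 1 barcode. Without it Tmem80 had 23 and 25 UMIs, and Gm10457 had 0 and 2. The histone genes Hist1h4d, Hist1h2ab, Hist1h3c and Hist2h2ac and the noncoding gene Snhg3 were lower in the other barcodes too. Histone genes are a family of near-identical copies, so reads can be assigned among them in more than 1 way, and Gstp1 has close paralogues as well. Apoe, a lipid carrier, stood at 385 and 80.0 CPM, with 159 of its 351 wild-type UMIs in 1 barcode. Without that barcode and the top mutant one its log2 ratio was -1.48. Bpgm stood at 58.2 and 19.1 CPM, with 17 of 53 wild-type UMIs in 1 barcode.

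**Figure D4:**
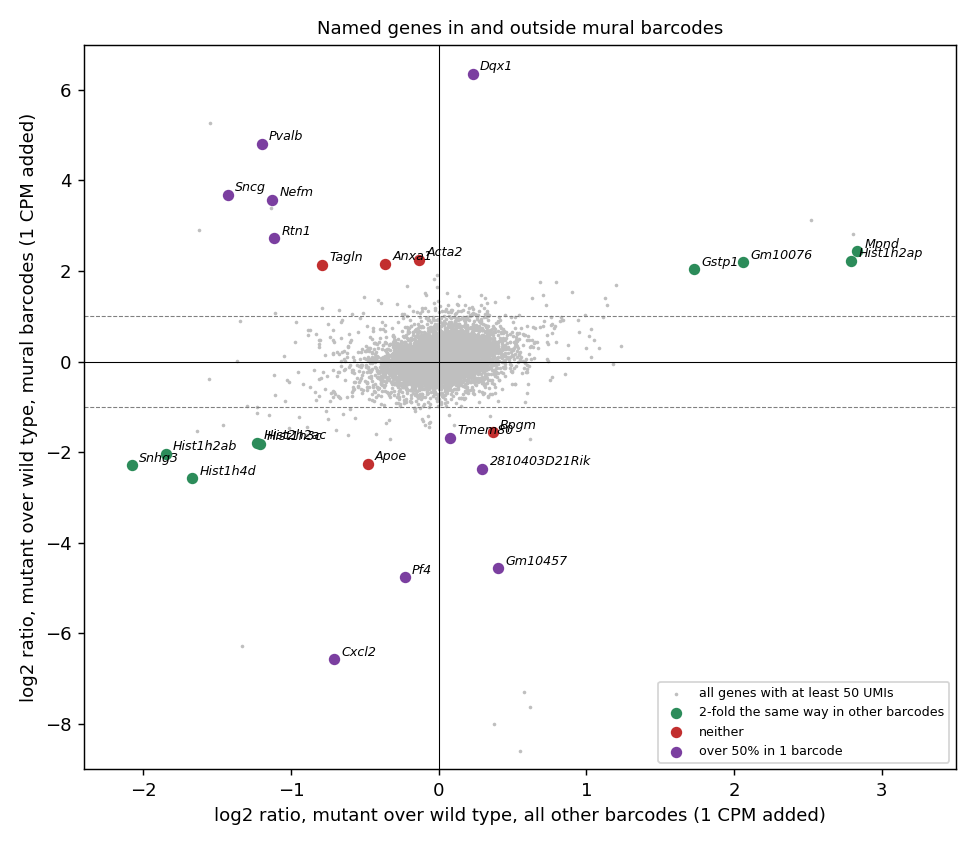
Log2 ratio, mutant over wild type, in mural barcodes (vertical) against that in all other barcodes (horizontal), 1 CPM added, for 6232 genes with at least 50 UMIs. Grey points are all genes and dashed lines mark 2-fold. Purple names have over 50% of their UMIs in 1 barcode of the library where they are higher, green names pass 2-fold the same way in other barcodes, and red names, among them Acta2 and Tagln, do neither.

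RNA of other cell types was counted in mural barcodes, and for some types it differed between the libraries. Erythroid genes summed to 42157 CPM over wild-type and 204 CPM over mutant members, and Hbb-bs alone had 17363 and 163 UMIs, 16903 of the wild-type ones in 3 barcodes. Over 10 UMIs per 10000 from the erythroid list were found in 5 wild-type and 0 mutant barcodes. Macrophage markers summed to 234 and 9.54 CPM, with 1 wild-type barcode above that limit. All 9 genes were 2-fold lower in the mutant, where 2.87% of all genes were. Of them C1qa and Fcer1g each had all wild-type UMIs, 29 and 35, in 1 barcode. In other barcodes the list summed to 262 and 363 CPM. Melanocyte markers summed to 190 and 54.3 CPM, where all 70 Dct UMIs came from 1 wild-type barcode, while Kit, of the same list, was spread over 42 and 43 barcodes. Neuron markers summed to 28.5 and 210 CPM, with 0 and 1 barcodes above the limit. Epithelial markers summed to 36.2 and 61.6 CPM with 2 and 1 barcodes above it, and glial markers to 256 and 220 CPM with 2 and 2.

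The 6 measured endothelial markers outside the selection summed to 340 and 337 CPM. All 9 listed outside it summed to 5588 and 5664 CPM in endothelial barcodes. All 12 listed markers, selection genes included, exceeded 10 UMIs per 10000 in 8 and 1 mural barcodes. Their values ranged from 0 to 17.4 and from 0 to 10.04 UMIs per 10000 over the mural barcodes. Mesenchyme markers summed to 1676 and 1363 CPM, against 6056 and 4639 CPM in all other barcodes, led by Otor at 691 and 492 CPM, and exceeded 10 UMIs per 10000 in 40 and 38 mural barcodes. That list includes Tbx18, named above as marking mural cells, at 201 and 244 CPM. On the skeletal muscle and cartilage list, which shares Des with the mural list, 5 of 9 genes had no UMI in the wild type and 4 of 9 none in the mutant. When the 9 wild-type and 3 mutant barcodes above the limit for any of 6 lineages, mesenchyme and endothelium not among them, were left out, 90 and 105 remained. The genes past 2-fold were then 75 higher and 48 lower, and the summed contractile ratio was 0.35. The part of such barcodes in the other list values was not tested beyond this.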

How the data were processed

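Single-cell RNA-seq counts from 2 libraries of pooled cochleae, 1 per genotype, were used. The deposited matrices hold raw UMI counts for 32285 genes per barcode, not normalized by the authors, with barcode and gene identifiers in separate files. Counting is given as Cell Ranger 6.0.0 on mm10 per the submitters' processing notes, whereas per the file headers Cell Ranger 5.0.1 made the mutant counts. The labels' protocols give the v3.1 kit for both, and the sample descriptions name different kit versions. The method of cell calling was not given in the sources used here.

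Barcodes with at least 1000 UMIs, 500 genes and at most 10% mitochondrial UMIs passed. The lowest passing barcodes had 3352 (wild type) and 1000 (mutant) UMIs. No doublet caller was run. The gate left out barcodes with any Epcam or with 2 or more UMIs of Cldn5, Cdh5 and Pecam1 together. Mixed barcodes were removed in alternatives. Counts were summed per library over mural barcodes and given as CPM with exact Poisson 95% intervals. Log2 ratios are of CPM with 1 added, and understate the change of low genes. Ratios of summed levels have an exact conditional interval. Genes entered with at least 50 UMIs, list members with at least 10. For shares, barcodes were thinned to 2000 UMIs. Python 3.11.15, numpy 2.4.6, scipy 1.17.1, pandas 2.3.3 and matplotlib 3.10.9 were used. Ratios were tested on simulated counts, and thinning was checked on the wild-type mural counts. Gene positions are from GENCODE vM21 (GRCm38), which held 32158 of the 32285 identifiers.

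Members and lists were chosen with earlier results of these data known. Named genes between libraries had at least 50 UMIs and 50 CPM in 1 library, at least 0.5 of their CPM in other barcodes there, and 1 direction under both scalings. Mitochondrial, ribosomal protein, haemoglobin, Xist, Tsix, Y-linked and selection genes were left out, and the 12 highest and 12 lowest were taken. The first 25 by ratio to other barcodes and, per list, the highest level, highest and lowest ratio at 30 UMIs or more were also named. Pdgfrb, Cspg4, Acta2, Tagln, Myh11, Ptch1, Gli1, Hhip and Emx2 were always included. Some genes that these rules name are not reported here. Any other gene in the text, the comparison of contractile with other barcodes, the endothelial, mesenchymal and epithelial comparison sets, the limits of 5 Rgs5 UMIs and of 50% in 1 barcode, and the alternatives without barcodes of another lineage or without each gene's top barcode were chosen after their values were seen. The mesenchymal set had at least 2 Col1a2 UMIs, 1 of Pdgfra, no Epcam or Rgs5 and fewer than 2 endothelial UMIs.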

Additional observations from a re-analysis of the deposited data

Results flagged for a closer look

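The 14 measured contractile genes had a log2 ratio, mutant over wild type, of 0.42 over the mural barcodes. All 18 listed genes had -0.38 over all other passing barcodes, the opposite direction. Tagln showed the same, with 2.14 in mural barcodes and -0.79 elsewhere. With 1 library per genotype these differences between cell groups were not tested. In the mural barcodes 97 of 309 mutant Tagln UMIs came from 1 barcode, and the log2 ratio without the top barcode of each library was 1.95.

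Outside the quality filter, 9 mutant barcodes met the gene conditions for mural cells and 0 wild-type barcodes did. The deposited mutant matrix had 2953 barcodes below the filter and the wild-type matrix 60. These 9 barcodes entered no comparison.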

How the results depend on the processing

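Each result was recomputed with other limits for Rgs5, partner genes, endothelial genes, UMIs and mitochondrial UMIs, other scaling, weights and gene minimums, and without mixed barcodes. The alternatives without barcodes of another lineage and without each gene's top barcode were chosen after seeing the data. Of the principal values 126 stayed within the limits set for no change, 41 moved further and 1 reversed. Of the other list ratios 142 stayed within them, 22 moved further and 1 reversed. Among those 22 were S phase genes at 0.17 and WNT genes at -0.67 without mixed barcodes. Integrins at -0.12 and vasoactive genes at -0.22 with 2 partner genes were also among them. The summed mural marker ratio, 0.09, turned to -0.012 with at least 2 partner genes, and was 0.020 without barcodes of another lineage and 0.001209 with median-of-ratios scaling. Its median, 0.23, was 0.18 with at least 3 Rgs5 UMIs, 0.078 with 2 partner genes and 0.15 with median-of-ratios scaling. D cyclins and CDK inhibitors, at 0.14, turned to -0.045 without mixed barcodes.

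The summed contractile ratio, 0.42, was 0.19 with 2 partner genes, 0.35 without barcodes of another lineage, 0.34 with median-of-ratios scaling and 0.31 with equal weights. Its median, 0.61, was 0.23 with 2 partner genes, 0.44 without mixed barcodes, 0.69 at 5% mitochondrial UMIs, 0.70 without barcodes of another lineage or without top barcodes, 0.53 with median-of-ratios scaling and 0.80 with equal weights. The summed matrix ratio, -0.08, was -0.12 with 3 Rgs5 UMIs, -0.17 with 2 partner genes, -0.041 with endothelial genes at 0, -0.13 without mixed barcodes, -0.14 without barcodes of another lineage and -0.16 with median-of-ratios scaling. Its median, 0.14, was 0.10 with endothelial genes at 0 or with a common UMI floor, 0.003027 without mixed barcodes, 0.033 at 5% mitochondrial UMIs, 0.067 without barcodes of another lineage, 0.053 with median-of-ratios scaling, 0.082 with the other UMI minimum, 0.058 with equal weights and 0.18 without top barcodes. The cause of these shifts was not tested.

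The mural shares were 1.07% and 0.747% without mixed barcodes, and 0.903% in the mutant when barcodes were thinned to 2000 UMIs before selection. With a common UMI floor the mutant share was 1.36%, nearer to the wild-type share of 1.54%. Genes at least 2-fold higher numbered 57 without mixed barcodes, 68 with 5 CPM added and 541 at a minimum of 10 UMIs, where 306 were lower, and 80 were lower with equal weights. The contractile share of mutant barcodes was 9.52% when 2 genes sufficed, and the dividing share was 35.3% without mixed barcodes. Adding 5 CPM cannot change a ratio of sums and was not run on it. No paired analysis was possible because each genotype has 1 library. With 99 and 108 barcodes, genes under 10 UMIs could not be compared.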
